A study of Mus musculus with 12 samples.

Results

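Col1a1, Col1a2, Col3a1, Col5a1 and Col5a2, genes for chains of the fibrillar collagens I, III and V, were followed in mouse pancreatic stellate cells (PSCs), the fibroblast-like cells that lay down much of the matrix of the diseased pancreas. These 5 genes were taken by name from the 420 genes listed for a targeted RNA panel of extracellular matrix (ECM) and adhesion genes, and all 5 were among the 238 genes with enough signal to test. The study compared PSCs with and without protein kinase N2 (PKN2), each given TGF-β1 at 5 ng/ml or its vehicle (albumin in citrate buffer) and harvested after 72 h, which gave 4 groups of 3 libraries lettered A, B and C: WT vehicle, PKN2 KO vehicle, WT TGF-β1 and PKN2 KO TGF-β1. By the study's methods, both genotypes came from PSCs of 1 mouse on a C57BL/6 background that carried Rosa26CreERT2, an inducible Cre expressed in most cell types, and floxed PKN2 alleles, and the cells of all groups had been immortalised with SV40 large T antigen. KO cells had received 4-hydroxytamoxifen to switch on the Cre; the methods read here do not say that WT cells did, so exposure to the drug and loss of PKN2 cannot be told apart. Since the libraries appear to derive from 1 mouse, the p-values measure the spread between these cultures, which may be technical.

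Fibrillar collagens are made as long procollagen chains that fold into a triple-stranded rod, are trimmed by proteases outside the cell and assemble into fibrils that are then cross-linked. Type I collagen, from Col1a1 and Col1a2, forms the bulk of most fibrils, type III collagen, from Col3a1 alone, is mixed with it in soft and healing tissue, and type V collagen, from Col5a1, Col5a2 and in some tissues Col5a3, helps to start fibrils and limits their width. TGF-β1 is a cytokine that drives fibroblasts toward contractile, matrix-producing myofibroblasts, and acts in part through SMAD proteins that bind DNA.

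By the annotation of the mouse build GRCm38 (mm10), all 5 genes are protein coding. Col1a1 lies on the forward strand at chr11:94936224-94953042, Col1a2 on the forward strand at chr6:4504814-4541544 and Col5a1 on the forward strand at chr2:27886425-28039514. Col3a1 (chr1:45311538-45349706, forward) and Col5a2 (chr1:45374321-45503282, reverse) are neighbours whose 3′ ends face each other, 24614 bp apart, with no annotated gene between them. RefSeq promoter sequence was at hand for 3 of the genes: Col1a2 and Col3a1, 1 chain each of types I and III, and Col5a1, a type V chain whose transcript rose with TGF-β1 in WT cells. The 250 bases before each RefSeq start (GRCm38.p6, forward strand, at chr6:4505368-4505617 for Col1a2, chr1:45311288-45311537 for Col3a1 and chr2:27886175-27886424 for Col5a1) are shown so that the motifs linked in textbooks to collagen transcription, TGF-β1 and the YAP partner TEAD can be seen, and capitals mark matches on either strand to the letters CCAAT (bound by NF-Y), TATAAA (the TATA box), CAGAC (a SMAD element), GGAATG (a TEAD element) and GGGCGG (an Sp1 element), and no match overlaps another:
Col1a2: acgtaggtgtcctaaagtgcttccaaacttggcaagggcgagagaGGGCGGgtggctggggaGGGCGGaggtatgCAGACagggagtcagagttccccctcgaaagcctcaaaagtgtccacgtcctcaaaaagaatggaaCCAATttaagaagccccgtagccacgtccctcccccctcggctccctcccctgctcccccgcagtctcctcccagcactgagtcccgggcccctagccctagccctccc
Col3a1: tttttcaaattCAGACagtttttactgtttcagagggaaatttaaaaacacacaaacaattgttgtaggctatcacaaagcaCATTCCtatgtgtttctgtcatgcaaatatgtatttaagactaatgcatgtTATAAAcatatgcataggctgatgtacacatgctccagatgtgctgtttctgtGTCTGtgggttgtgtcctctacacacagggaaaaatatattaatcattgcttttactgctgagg
Col5a1: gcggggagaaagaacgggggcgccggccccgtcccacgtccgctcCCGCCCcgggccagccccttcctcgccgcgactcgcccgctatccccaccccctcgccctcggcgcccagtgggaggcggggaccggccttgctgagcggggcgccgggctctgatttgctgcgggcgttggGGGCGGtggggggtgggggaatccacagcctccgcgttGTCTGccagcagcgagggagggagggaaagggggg
The Col1a2 window held 1 CCAAT, 1 CAGAC and 2 GGGCGG. The Col3a1 window held 1 TATAAA, 2 CAGAC, of which 1 was on the opposite strand as GTCTG, and 1 GGAATG on the opposite strand. The Col5a1 window held 1 CAGAC on the opposite strand and 2 GGGCGG, 1 on each strand. Over windows of the same length at 32851 mouse promoters, 33.85% held the CCAAT motif, 12.37% the TATA box, 42.19% the SMAD element, 12.64% the TEAD element and 32.74% the Sp1 element. All 3 windows thus held CAGAC, which is common at promoters, and these matches describe letters and not bound sites.

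The libraries held from 1074095 to 1473153 counts each, of which the 5 collagens took from 16.1% to 24.1%. Libraries of 1 group differed by far more than sampling noise, with a chi-square per degree of freedom of 15.0 to 330.2. Values are normalized counts, the authors' counts divided by 1 factor per library set from reference genes. Each gene was amplified with its own primers, so levels of different genes cannot be ranked. The libraries lettered B stood apart. Library B was the lowest of its group in 4 of 4 groups for Col1a1, Col1a2, Col3a1 and Col5a2, with Col1a1 there at 46.9% to 61.5% of the mean of A and C, and in 2 of 4 groups for Col5a1. The normalized total of the whole panel was also lowest in B in 4 of 4 groups, at 66.8% to 82.6% of the mean of A and C. The factor that divides the counts was largest for B in each group, at 1.48, 1.42, 1.27 and 1.16 in the order of groups above. As shares of the panel's counts, Col1a1 and Col3a1 were still lowest in B in every group, whereas Col5a1 was highest there. Col5a2 in WT vehicle was also highest in B as a share. The low normalized values in B thus depend in part on the factor. Results are therefore also given without the 4 libraries lettered B where that changes a call. For the labelled cell type, 4 of 5 mesenchymal markers passed the filter. Sparc, Postn and Fn1 were at 11370 normalized counts or more in every library, whereas Dcn, the decorin gene, passed through the vehicle groups only, with means of 21.5 in WT and 35.3 in KO against 0.977 and 3.69 after TGF-β1, and Lum, the lumican gene, had 5 counts or fewer. Epithelial, endothelial and leukocyte markers, of which 0 of 3, 1 of 6 and 1 of 8 passed the filter, each summed to at most 33.9. Pkn2 is not on the panel, and the deletion could not be checked in these libraries.

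Loss of PKN2 in vehicle gave no called difference in any of the 5 collagen transcripts. In these bulk cultures, fewer expressing cells and less RNA per cell cannot be told apart. Col1a1, the main chain of type I collagen, was at 199903, 105448 and 143313 normalized counts in WT libraries A, B and C and at 173503, 109583 and 196011 in the KO libraries. Col1a2, its partner chain, was at 35337, 25720 and 35565 in WT and at 37336, 26740 and 41800 in KO. Col3a1, the single chain of type III collagen, was at 14220, 7783 and 11841 in WT and at 12018, 7932 and 12885 in KO. These 3 genes overlapped between genotypes and followed the library letter more than the genotype. Col5a1 was at 8274, 8149 and 7700 in WT and at 8520, 8542 and 8276 in KO. The 2 groups did not overlap for Col5a1, but by a margin of a few counts, and the means were 8041 ± 302 and 8446 ± 147 (SD, n = 3), a fitted ratio of 1.05. Such separation in the higher direction held for 23.9% of all genes. Col5a2 was at 16260, 13278 and 14012 in WT and at 15437, 11141 and 14724 in KO, with overlap. As a share of the panel's counts Col5a2 did not overlap, with 1.28%, 1.33% and 1.23% in WT and 1.21%, 1.18% and 1.08% in KO, as held in the lower direction for 12.2% of all genes. On the log2(normalized count + 1) scale the differences between KO and WT ran from -0.09 for Col5a2 to 0.12 for Col1a2. By limma, 0 of 5 passed an adjusted p of 0.05 and 0 of 5 an unadjusted p of 0.05, the smallest unadjusted p being 0.638, and edgeR and DESeq2 on the reads also called 0 of 5, whereas 33 of all 238 genes (13.9%) were called. The 95% confidence intervals bound what could have been missed: they ran from -0.32 to 0.47 for Col5a1 and from -0.72 to 0.92 for Col1a1. Directions this close to 0 are not fixed by the data, since with TMM or median-of-ratios factors Col1a1, Col1a2 and Col5a1 had negative values. The plot of normalized counts by library shows these values beside those after TGF-β1.

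**Figure D1:**
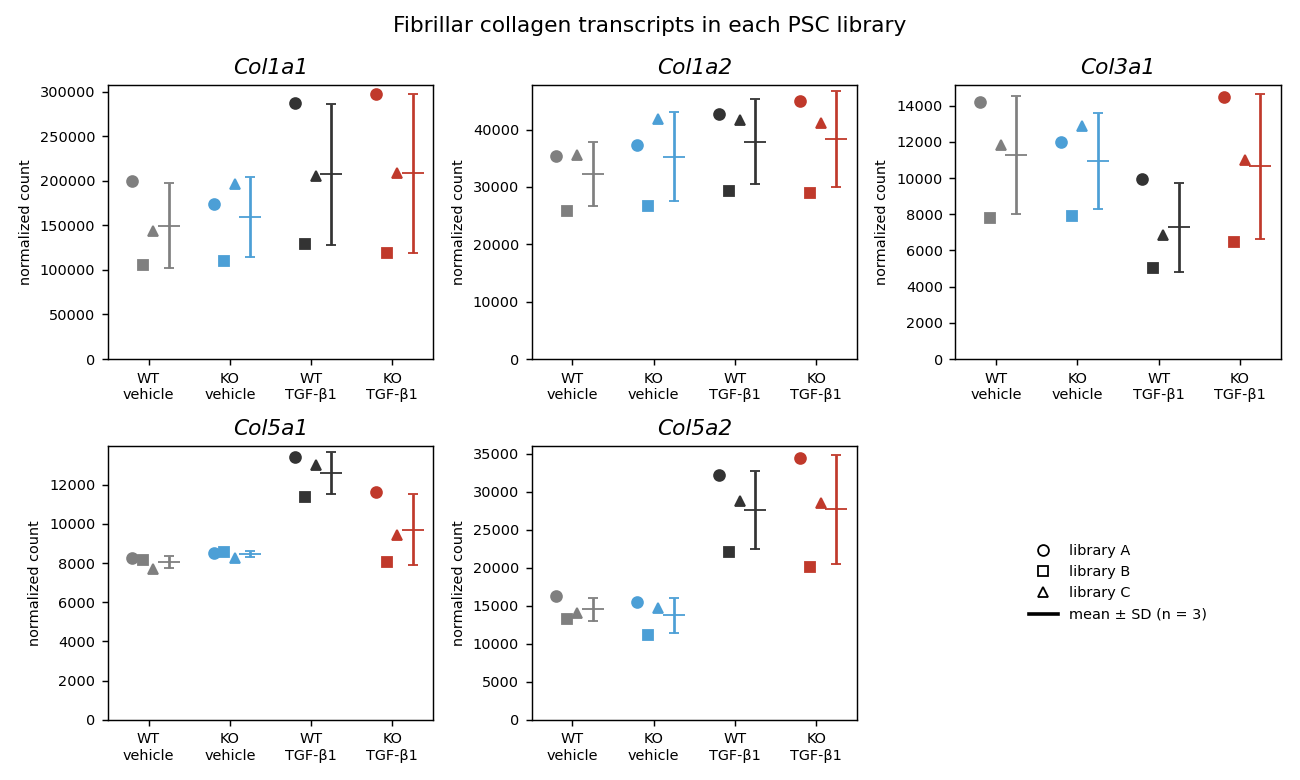
Normalized counts (vertical axes from 0) of the 5 collagen genes in each library, with WT vehicle in grey, PKN2 KO vehicle in blue, WT TGF-β1 in black and PKN2 KO TGF-β1 in red, symbols for the library letters, and bars for mean ± SD (n = 3). Col5a2 is higher in all 3 TGF-β1 libraries of each genotype than in any vehicle library, Col5a1 clearly so in WT, and the square symbols (B) sit lowest in every group for Col1a1, Col1a2, Col3a1 and Col5a2.

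Of the 5 collagens, the type V chains Col5a1 and Col5a2 were called as higher with TGF-β1 in WT cells in the main fit. Col5a2 was at 32144, 22023 and 28731 normalized counts after TGF-β1 against 16260, 13278 and 14012 in vehicle. All 3 treated libraries lay above all 3 controls, and the mean rose from 14517 ± 1554 to 27633 ± 5149 (SD, n = 3). The fitted change was 0.92 on the log2 scale (SE 0.24, 95% CI 0.40 to 1.43; limma adjusted p = 0.00458), or 1.89-fold. Col5a1 was at 13413, 11365 and 13031 after TGF-β1, again above every WT vehicle library, and changed by 0.65 (SE 0.18, 95% CI 0.25 to 1.04; limma adjusted p = 0.00832), or 1.56-fold. Both calls held in 24 of 24 alternatives each. Thus 2 of the 5 collagens were called, against 50.8% of all genes called in this comparison and 23.9% called as higher, and the collagens' share is close to that background. Groups without overlap in the higher direction held for 25.6% of all genes.

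The type I chains were not called after TGF-β1 in WT cells. Col1a1 was at 287598, 128611 and 204906, and Col1a2 at 42766, 29340 and 41597. The A library was the highest of all WT libraries for both chains, while library B of each lay below at least 1 vehicle library, so the groups overlapped. The fitted changes were 0.44 for Col1a1 (95% CI -0.38 to 1.27; limma adjusted p = 0.382) and 0.23 for Col1a2 (95% CI -0.32 to 0.78; limma adjusted p = 0.502), and changes of up to the upper bounds could have been missed. The value for Col1a1 ran from 0.17 without WT TGF-β1 library A to 0.75 without WT TGF-β1 library B, with 0 of 12 such fits past the test. With the library letter as a replicate block Col1a1 was called as higher, as given below.

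Col3a1 had a lower mean after TGF-β1 in WT cells, and whether it passed the test depended on the scaling. It was at 9926, 5012 and 6882 normalized counts against 14220, 7783 and 11841 in vehicle. The groups overlapped through library A of the treated cells and library B of the controls. The fitted change was -0.65 (SE 0.34, 95% CI -1.38 to 0.08; limma adjusted p = 0.135). As a share of the panel's counts the groups did not overlap, with 0.621%, 0.463% and 0.491% after TGF-β1 against 1.12%, 0.782% and 1.04% in vehicle, as held in the lower direction for 41.2% of all genes. Without the 4 libraries lettered B the change was again -0.65 and passed (limma adjusted p = 0.0252). Leaving out 1 library at a time gave from -0.90 to -0.40, and the change passed in 1 of 12 such fits, without WT TGF-β1 library A (limma adjusted p = 0.0481), while it was -0.40 without WT TGF-β1 library B (limma adjusted p = 0.412) and -0.46 without WT vehicle library A (limma adjusted p = 0.353). It also passed under each of the other 4 scalings tried.

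In PKN2 KO cells Col5a2 alone among the 5 was called as higher with TGF-β1 in the main fit. Col5a2 was at 34400, 20153 and 28588 normalized counts after TGF-β1 against 15437, 11141 and 14724 in KO vehicle, without overlap, as held in the higher direction for 21.4% of all genes. Its change of 0.99 (SE 0.24, 95% CI 0.48 to 1.50; limma adjusted p = 0.00313) was close to that in WT, and the difference between the 2 changes was 0.07 (95% CI -0.65 to 0.80). Col5a1 was at 11646, 8035 and 9451 against 8520, 8542 and 8276. Library B after TGF-β1 lay below all 3 vehicle libraries, and the change of 0.18 was not called (95% CI -0.21 to 0.58; limma adjusted p = 0.459). Col3a1 was at 14459, 6463 and 11018 against 12018, 7932 and 12885, a change of -0.08 (95% CI -0.81 to 0.65; limma adjusted p = 0.889). Its groups overlapped on normalized counts but not as shares of the panel, where all 3 treated libraries were lower (0.840%, 0.623% and 0.795% against 0.939%, 0.841% and 0.948%), library A of the treated cells only just below library B of the controls, as for 41.2% of all genes. Col1a1 was at 297374, 118607 and 208787, a change of 0.33 (95% CI -0.50 to 1.15; limma adjusted p = 0.530) that ran from 0.0215 without PKN2 KO TGF-β1 library A to 0.68 without library B of that group. Col1a2 was at 45013, 28947 and 41081, a change of 0.12 (95% CI -0.43 to 0.67; limma adjusted p = 0.743). In this comparison 48.7% of all genes were called and 19.7% as higher, against 1 of the 5 collagens, and the median change was 0.18 over the 5 collagens and -0.14 over all genes, beside 0.44 and 0.00 in WT.

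**Figure D2:**
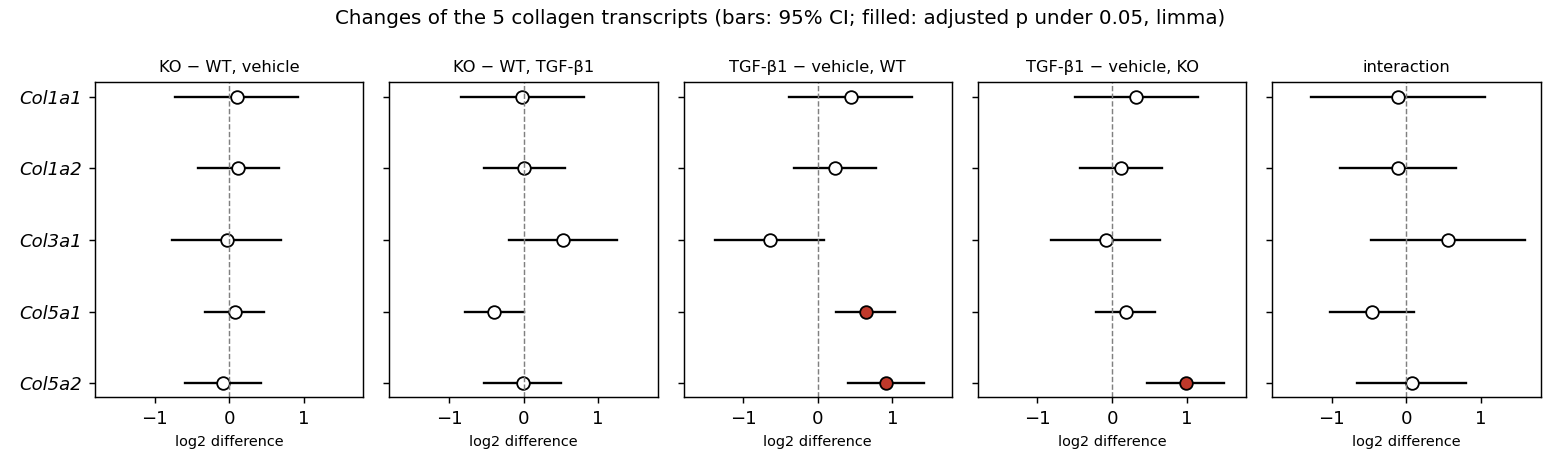
Differences of the 5 collagen genes on the log2(normalized count + 1) scale for the 5 comparisons, with 95% confidence intervals; filled points passed an adjusted p of 0.05 by limma. Only Col5a1 and Col5a2 with TGF-β1 in WT, and Col5a2 with TGF-β1 in KO, are filled, and the widest intervals are those of Col1a1.

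After TGF-β1, the 2 chains that differed most between genotypes were Col3a1 and Col5a1, in opposite directions. Neither was called with the authors' factors and no replicate block. Every other scaling tried called either Col3a1 or Col5a1, and a replicate block called both, as given below. Col5a1 was at 11646, 8035 and 9451 in KO against 13413, 11365 and 13031 in WT. Only KO library A overlapped with the WT range, and the means were 9711 ± 1819 and 12603 ± 1089 (SD, n = 3). The difference was -0.39 (SE 0.18, 95% CI -0.78 to 0.01; unadjusted p = 0.0534, limma adjusted p = 0.184). Col3a1 was at 14459, 6463 and 11018 in KO against 9926, 5012 and 6882 in WT, with overlap, and differed by 0.53 (SE 0.34, 95% CI -0.20 to 1.26; limma adjusted p = 0.359). That difference ran from 0.27 without PKN2 KO TGF-β1 library A to 0.85 without library B of that group. As shares of the panel both were without overlap: Col5a1 was at 0.677%, 0.775% and 0.682% in KO against 0.839%, 1.05% and 0.929% in WT, and Col3a1 at 0.840%, 0.623% and 0.795% against 0.621%, 0.463% and 0.491%. Such separation held in the lower direction for 16.4% and in the higher direction for 24.4% of all genes. Col1a1, Col1a2 and Col5a2 differed by between -0.01 and 0.01, with intervals from -0.84 to 0.81 for Col1a1, from -0.54 to 0.56 for Col1a2 and from -0.53 to 0.50 for Col5a2. By limma 0 of 5 passed an adjusted p of 0.05 and 0 of 5 an unadjusted one, while 36 of 238 genes (15.1%) were called. By edgeR and DESeq2, run with the same factors and no block, 0 of 5 passed too.

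The interaction, which asks whether the response to TGF-β1 differed between genotypes, was called for 0 of 5 collagens by limma, edgeR and DESeq2, with 0 of 5 at an unadjusted p of 0.05 by limma, against 8 of 238 genes (3.36%). For Col3a1 it was 0.56 (SE 0.48, 95% CI -0.47 to 1.59; limma adjusted p = 0.763) and for Col5a1 -0.46 (SE 0.26, 95% CI -1.02 to 0.10; limma adjusted p = 0.572). The rise of Col5a1 in WT without a call in KO is therefore not shown by these fits, which hold no block, to be a difference between the genotypes. With the library letter as a replicate block the interaction was called for Col3a1 and Col5a1, but for neither without a trend of the variance, as given below.

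Several of these calls changed with the scaling of the libraries. With the reads rescaled to the total count of each library, all genes together shifted by a median of -0.25 with TGF-β1 in WT, against 0.00 with the authors' factors. Col3a1 then fell with TGF-β1 in WT by 0.90 (SE 0.16; limma adjusted p = 0.000348), and by 0.67 with TMM factors (limma adjusted p = 0.0464). The fall with total counts exceeded the shift of all genes in size. With total counts Col3a1 was also higher in KO than in WT after TGF-β1 by 0.52 (limma adjusted p = 0.0286). Col5a1 was lower in KO after TGF-β1 by -0.50 with TMM factors (limma adjusted p = 0.0124), by -0.51 with median-of-ratios factors (limma adjusted p = 0.00575) and by -0.40 with the total count without the 5 collagens (limma adjusted p = 0.0353). Col5a2 rose with TGF-β1 in WT under each scaling, by 0.67 to 0.92. The plot of differences under 5 scalings shows that the signs of these 4 differences were the same throughout and that the standard errors were largest with the authors' factors.

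**Figure D3:**
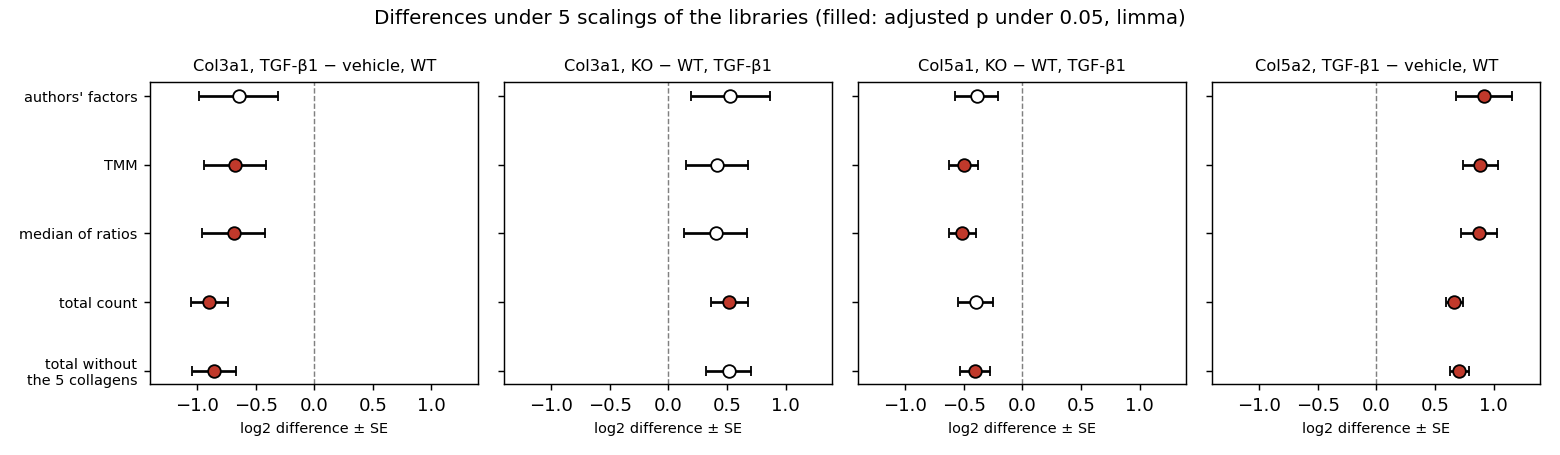
Log2 differences ± SE of Col3a1, Col5a1 and Col5a2 in 4 gene and comparison pairs under the authors' factors, TMM, median of ratios, total count, and total count without the 5 collagens; filled points passed an adjusted p of 0.05 by limma. Col5a2 is filled throughout, Col3a1 with TGF-β1 in WT in all but the authors' factors, and the other pairs in 1 or 3 of 5 scalings.

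Ratios of transcripts within a library do not depend on the factor. The ratio of Col3a1 to Col1a1, the mix of type III to type I transcripts in arbitrary amplicon units, was 0.0711 to 0.0826 in the 3 WT vehicle libraries and 0.0657 to 0.0724 in KO vehicle. It was 0.0336 to 0.0390 in WT after TGF-β1 and 0.0486 to 0.0545 in KO after TGF-β1. The treated libraries of each genotype lay below their controls without overlap, and after TGF-β1 the KO libraries lay above the WT libraries without overlap. How often ratios of other gene pairs separate in this way was not counted, so these separations cannot be called unusual. The mean log2 ratio fell by 1.09 with TGF-β1 in WT and by 0.41 in KO, and over both genotypes by 0.75 (exact permutation test within genotype, two-sided, p = 0.005, the smallest of 400 splits; adjusted over 6 ratio tests, p = 0.03). It fell with TGF-β1 by 0.72 to 0.78 when any 1 library was left out. The genotype difference over both treatments was 0.21 (exact permutation p = 0.12, adjusted 0.24). It averages -0.13 in vehicle and 0.54 after TGF-β1, which partly cancel, so it does not test the genotypes after TGF-β1 alone. A falling ratio shows unequal change and not which of the genes moved.

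The ratio of Col5a1 to Col5a2 also fell with TGF-β1, by 0.54 on the log2 scale (exact permutation p = 0.01, two-sided; adjusted over 6 ratio tests, p = 0.03). It was 0.509 to 0.614 in WT vehicle, 0.552 to 0.767 in KO vehicle, 0.417 to 0.516 in WT after TGF-β1 and 0.331 to 0.399 in KO after TGF-β1. The KO TGF-β1 libraries were the lowest 3 of all 12, below WT TGF-β1 by 0.38 and below KO vehicle by 0.80, whereas WT vehicle and WT TGF-β1 overlapped. For this ratio as well, other gene pairs were not counted. Over both treatments the genotype difference was -0.11 (exact permutation p = 0.42, adjusted 0.504). This too averages opposite signs, 0.16 in vehicle and -0.38 after TGF-β1, and does not test the genotypes after TGF-β1 alone. The ratio of the 2 type I chains, Col1a1 to Col1a2, overlapped in every comparison, with 4.03 to 5.66 in WT vehicle, 4.10 to 4.69 in KO vehicle, 4.38 to 6.72 in WT TGF-β1 and 4.10 to 6.61 in KO TGF-β1. Its difference was 0.21 with TGF-β1 (exact permutation p = 0.195, adjusted 0.292) and -0.02 by genotype (exact permutation p = 0.85, adjusted 0.85).

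**Figure D4:**
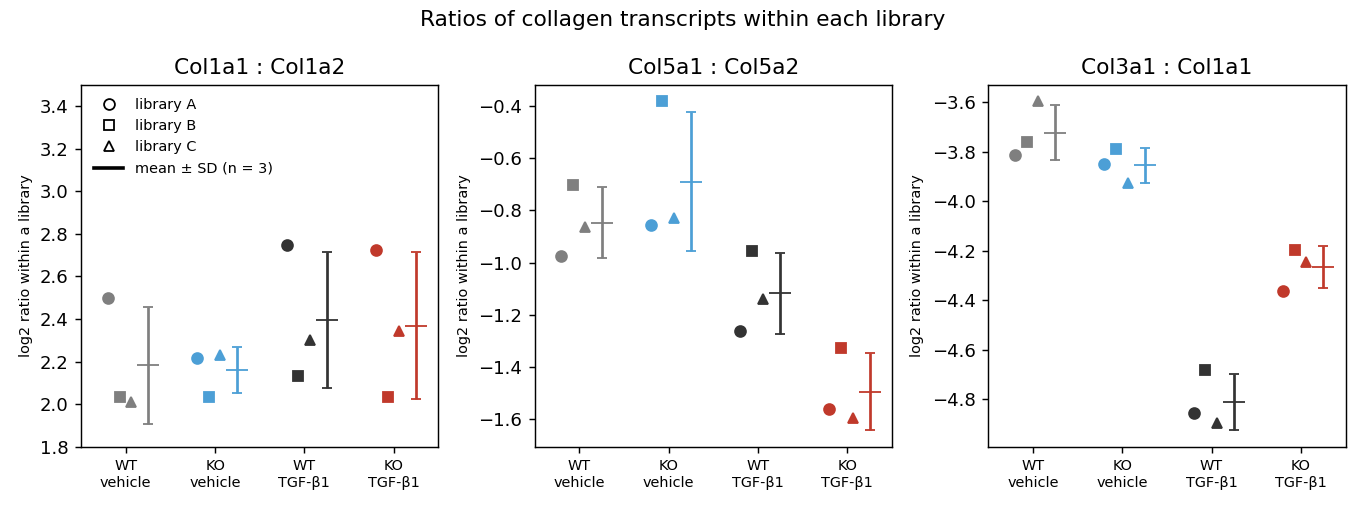
Log2 ratios of normalized counts within each library for Col1a1 to Col1a2, Col5a1 to Col5a2 and Col3a1 to Col1a1, by group with the colours of the counts plot, letters as symbols and bars for mean ± SD (n = 3); the vertical axes do not start at 0. The third panel falls into vehicle libraries near -3.8, KO TGF-β1 near -4.3 and WT TGF-β1 near -4.8.

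Across the 12 libraries the collagens followed each other to different degrees, which is given as a description because the libraries share groups, letters and normalization. Pearson's r of the log2 values was 0.94 for Col1a1 with Col1a2 and 0.82 for Col5a1 with Col5a2, the pairs of chains of 1 collagen type. Across types, Col1a1 had 0.60 with Col3a1, 0.61 with Col5a1 and 0.74 with Col5a2, and Col1a2 had 0.61, 0.49 and 0.65 with the same genes. Only Col3a1 with the type V chains was near or below 0, at -0.01 with Col5a2 and -0.23 with Col5a1. The genes of the panel most like Col1a1 were Fbln2 (r = 0.98), Emilin1 (0.95) and Sparc (0.93), and those most like Col1a2 were Sparc (0.94), Fbln2 (0.90) and Mmp2 (0.90). Fbln2 encodes fibulin-2, Emilin1 an elastic-fibre glycoprotein, Sparc a collagen-binding matricellular protein and Mmp2 a gelatinase. Col3a1 was most like Serpinb9 (0.91), Cercam (0.90) and Itgb5 (0.90). Col5a2 was most like Lamb1, a laminin chain (0.99), Itgb1, the common beta chain of the collagen-binding integrins (0.98), and Cdh11, a mesenchymal cadherin (0.98). Among the genes most like Col5a1 were Thbs1, which encodes thrombospondin-1 (0.98), and Fbn1, the fibrillin-1 gene (0.91). Thbs1 was called as lower in KO after TGF-β1 (log2 difference -0.90; limma adjusted p = 0.0112) without a called interaction.

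Other fibrillar chains rose or fell with TGF-β1 in both genotypes. Of the 6 listed, Col24a1 did not pass the filter, and of the 5 tested, 3 rose and 1 fell in each genotype. Over all genes, 50.8% were called with TGF-β1 in WT and 48.7% in KO, with 23.9% and 19.7% called as higher. Between genotypes 13.9% were called in vehicle and 15.1% after TGF-β1, and 3.36% in the interaction. The counts in this and the following lists were not tested against these shares. Col5a3, the third type V chain, rose by 2.50 in WT and 2.20 in KO, Col27a1 by 3.30 and 2.51, and Col11a1, a close relative of Col5a1 in minor fibrillar collagens, by 1.64 and 0.89. Col2a1, the cartilage type II chain, changed by -2.77 in WT and -3.22 in KO. Col2a1 and Col11a1 were also lower in KO than in WT, by -1.54 and -0.78 in vehicle and by -1.99 and -1.53 after TGF-β1. Col11a2 was not called in any comparison, nor did any of the 5 have a called interaction.

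Of the 5 tested enzymes and chaperones that fold and modify procollagen, 2 rose with TGF-β1 in WT and 1 in KO, and 0 differed between genotypes. Plod2, the lysyl hydroxylase of the chain ends, rose by 1.68 in WT and 1.83 in KO, and P3h1, a prolyl 3-hydroxylase, by 0.72 in WT, with 0.40 in KO not called. Serpinh1, the collagen chaperone HSP47, had 0.18 and 0.30, P4ha1, a prolyl 4-hydroxylase subunit, 0.33 and 0.48, and Plod3 -0.07 and 0.16, and none of these was called. Of the 3 procollagen-processing genes tested, 2 fell with TGF-β1 in WT and 3 in KO, where 50.8% and 48.7% of all genes were called in either direction. Pcolce, an enhancer of C-propeptide removal, changed by -0.94 in WT and -1.07 in KO, and Adamts2, an N-propeptidase, by -0.83 and -0.75. Adamts14, a related N-propeptidase, was at -0.31 in WT without a call and at -1.64 in KO, with a called interaction of -1.33 (limma adjusted p = 0.0257), and differed by -1.64 between KO and WT after TGF-β1.

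Of the 3 cross-linking oxidases, Lox rose in WT by 0.88 (limma adjusted p = 0.0116), with 0.61 in KO not called. Loxl1 changed in KO by -0.48 (limma adjusted p = 0.0120), with -0.14 in WT not called, and Loxl2 was lower in KO than in WT after TGF-β1 by -1.34 (limma adjusted p = 0.0179). None of these 3 had a called interaction. Of the 8 tested molecules that bind fibrils, 1 rose and 3 fell with TGF-β1 in WT, and 1 rose and 4 fell in KO. Tnxb, the tenascin-X gene, changed by -6.20 in WT and -5.00 in KO, and was higher by 1.79 in KO than in WT after TGF-β1. Aspn, which encodes asporin, rose by 0.53 in WT, with 0.17 in KO not called. Fmod, which encodes the fibril-binding proteoglycan fibromodulin, rose by 2.19 in KO, with 1.17 in WT not called (limma adjusted p = 0.0505). Neither had a called interaction. Fmod was also higher in KO than in WT, by 1.90 in vehicle and 2.92 after TGF-β1. Of the 4 tested collagen-degrading metalloproteinases, 3 rose in each genotype, led by Mmp9 with 7.38 in WT and 3.97 in KO, and Mmp9 alone was called between genotypes after TGF-β1 (-2.74) and in the interaction (-3.41). Of the 5 collagen-binding integrin chains, 2 rose and 1 fell in each genotype: Itga2 rose by 3.34 and 3.14, and Itga11 changed by -3.57 in WT and -6.27 in KO, with a called difference of -2.12 between KO and WT after TGF-β1 and a called interaction of -2.69. Some of these groups were near 0, with mean normalized counts of 0.329 for Mmp9 in WT vehicle and 0.961 for Tnxb in WT after TGF-β1. Itga11 was at 1.27 in KO after TGF-β1. Itga2 and the metalloproteinase Mmp13 were at 3.61 and 0.722 in WT vehicle. The log2 changes of these genes, and the interactions of Mmp9 and Itga11, depend on the pseudocount of 1 and are not folds. Mmp9, Mmp13 and Itga2 needed the TGF-β1 groups to pass the filter. Tnxb, Itga11, Dcn and the fibril-binding Col14a1 needed the vehicle groups. Their direction with TGF-β1 was thus partly set by the filter, and they are included in the counts of rises and falls above. Of 7 TGF-β-responsive matrix genes, 5 rose in WT and 2 in KO, led by Tnc, the tenascin-C gene, with 3.18 and 3.27. After TGF-β1, 3 of these were lower in KO than in WT, and Tgfbi was higher by 0.98. The interaction was called for 2 of the 7, so a rise called in WT alone is not by itself a difference between genotypes. The median change with TGF-β1 in WT and KO was 1.64 and 0.89 for the other fibrillar chains, 0.33 and 0.40 for folding, -0.83 and -1.07 for processing, 0.59 and -0.48 for cross-linking, 0.07 and -0.47 for fibril-binding molecules, 1.83 and 1.71 for metalloproteinases, -0.15 and 0.22 for integrins and 1.28 and 0.49 for the TGF-β-responsive genes. Over all genes the median was 0.00 in WT and -0.14 in KO, and 50.8% and 48.7% of all genes were called. The plot of TGF-β1 changes sets the 5 collagens beside the chains and enzymes that make fibrils.

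**Figure D5:**
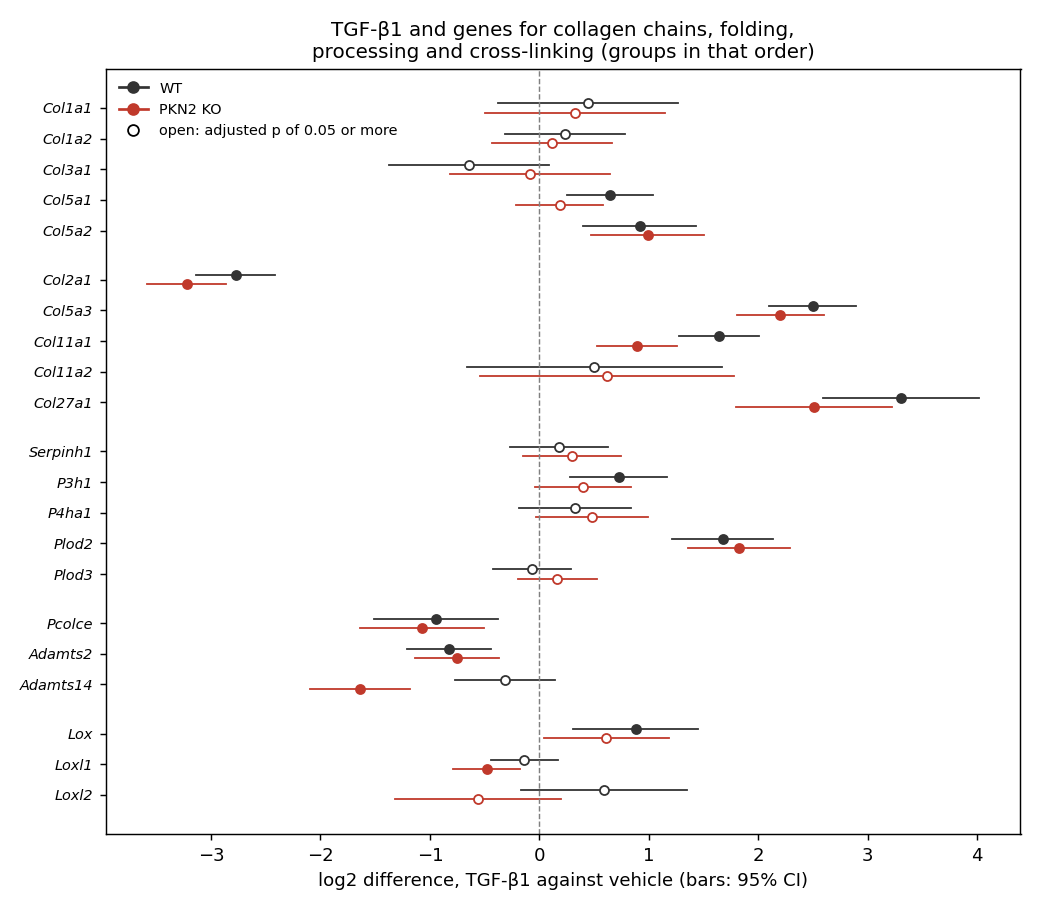
Log2 differences between TGF-β1 and vehicle, with 95% confidence intervals, in WT (black) and PKN2 KO (red) for the 5 collagens and for tested genes of other fibrillar chains, folding enzymes, processing and cross-linking; filled points passed an adjusted p of 0.05 by limma. The 5 collagens lie between -0.65 and 0.99, while Col27a1 reaches 3.30 and Col2a1 -3.22.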

How the data were processed

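Targeted RNA libraries of WT and PKN2 KO PSCs (12 libraries, 3 per group by the labels) were analysed. The authors deposited raw counts and, in a pair of tables, normalized counts, a signal per gene in which the counts of a library are scaled by a single factor from reference genes that are not named. Per the submitters' processing notes, STAR, DESeq2 1.32 and mm10 were used. Of the raw columns, 6 repeat a name and were not used, and normalized counts supplied all 12 libraries. Reads recovered by dividing by each library's step equalled the deposited raw counts in 2520 of 2520 values of the 6 libraries with uniquely named raw columns. Those of the other 6 could not be compared with raw counts, and in all 12 libraries values lay within 5.82e-05 of a whole read. These reads served for rescaling and count tests.

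The test, planned on counts, was limma 3.58.1 (R 4.3.3, trend and robust) on log2(normalized count + 1), with 1 mean per group, over 238 genes with at least 10 in at least 3 libraries, adjusted by Benjamini-Hochberg at 0.05. It was tested on simulated counts that held no effect shared by library letter, so that check does not cover the letter pattern seen here. Within-library ratios were compared by exact permutation within the other factor. Genes were named by rule: the 5 collagens, the 3 genes most like each, all genes of the chain, folding, processing and cross-linking lists, and the largest called changes of the other lists, except that 1 gene is not reported here. Members and lists were chosen with earlier results of these data known. Alternatives were other scalings, pseudocount, filter, variance models, edgeR 4.0.16, DESeq2 1.42.0, a replicate block and leaving out libraries. Leaving out the libraries lettered B was chosen after seeing the data. Gene positions are from GENCODE annotation of GRCm38, which is the assembly of mm10, and promoter sequences from RefSeq.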

Additional observations from a re-analysis of the deposited data

Results flagged for a closer look

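For Col5a1, every PKN2 KO library was above the WT mean in vehicle and every PKN2 KO library was below the WT mean after TGF-β1, so that the sign of the difference between genotypes changed, while the mean of each genotype was higher after TGF-β1. The difference between these differences was -0.46 on the log2 scale and was tested by the interaction, where it was not called (limma adjusted p = 0.572). A replicate block called it, but not without a trend of the variance, as given below. The change of sign depends on the scaling. In vehicle Col5a1 was lower in KO with TMM (-0.11) and median-of-ratios factors (-0.16), as after TGF-β1. With the total count, or that without the 5 collagens, it stayed just above 0 (0.0087 and 0.011).

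For the ratio of Col3a1 to Col1a1, every PKN2 KO library was below the WT mean in vehicle and above it after TGF-β1. The difference between these differences was 0.68 on the log2 scale and was not tested.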

How the results depend on the processing

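Without any library in turn, 2 to 3 of the 5 collagens were called with TGF-β1 in WT, 1 in KO and 0 in the genotype comparisons and the interaction; the counts over all genes ran from 18 to 38 in vehicle, 26 to 48 after TGF-β1, 112 to 125 with TGF-β1 in WT, 99 to 116 in KO and 0 to 11 for the interaction. Under these left-out libraries, values near 0 changed sign: in vehicle Col1a1 ran from -0.13 to 0.35, Col1a2 from -0.0315 to 0.31, Col3a1 from -0.28 to 0.19 and Col5a2 from -0.18 to 0.0600; after TGF-β1 Col1a1 ran from -0.32 to 0.34, Col1a2 from -0.16 to 0.20 and Col5a2 from -0.19 to 0.20; with TGF-β1 in KO Col1a2 ran from -0.0680 to 0.31 and Col3a1 from -0.34 to 0.24; the interaction ran from -0.42 to 0.24 for Col1a1, -0.30 to 0.0796 for Col1a2 and -0.10 to 0.29 for Col5a2; and the Col1a1 to Col1a2 ratio by genotype from -0.11 to 0.0650. Of the 5 collagens, 1 was called between genotypes after TGF-β1 with TMM factors, median of ratios, total count, or total count without the 5 collagens, and over all genes 56, 55, 65 and 63 were called. Signs also changed in vehicle with TMM factors (Col1a1 -0.0832, Col1a2 -0.0613, Col5a1 -0.11) and median of ratios (-0.13, -0.11 and -0.16); for Col1a2 after TGF-β1 with TMM (-0.10), median of ratios (-0.11) and the total without the 5 collagens (-0.0024); with DESeq2 and edgeR for Col1a1 (0.0085 in both) and Col5a2 (0.0042 in both); with total count for Col1a2 in WT (-0.0202) and KO (-0.0778) and Col5a1 in KO (-0.0127), and for Col1a2 in KO without the 5 collagens in the total (-0.0428); and without the 4 libraries lettered B for Col1a1 (0.0377) and Col5a2 (0.0453) after TGF-β1 and Col3a1 with TGF-β1 in KO (0.0205). Without these 4 libraries the falls with TGF-β1 of the ratios of Col3a1 to Col1a1 (-0.79) and Col5a1 to Col5a2 (-0.51) had an adjusted exact permutation p of 0.167 each, the smallest that so few libraries allow here. Over all genes the interaction had 4 calls without a trend of the variance and 1 without the B libraries.

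The replicate letters were not used as a block in the main fit. Deviations from group means correlated by 0.39 on average over 18 same-letter pairs (-0.23 to 0.70), and 13 pairs were over 0.1. All A pairs (0.35 to 0.70) and all B pairs (0.60 to 0.68) were over 0.1, whereas C pairs ran from -0.23 to 0.14. Libraries lettered A and B thus shared deviations across groups, which the main fit leaves in its spread. With the letter as a replicate block, 2 collagens were called between genotypes after TGF-β1 (Col3a1, limma adjusted p = 6.37e-05, and Col5a1, 0.00447), 4 with TGF-β1 in WT (all but Col1a2), 2 in KO (Col1a1 and Col5a2) and 2 in the interaction (Col3a1 and Col5a1), against 101, 159, 153 and 42 of all 238 genes, and 0 of 5 in vehicle against 87. With the block and no trend of the variance, these were 2 (Col3a1, 0.0170, and Col5a1, 0.0352), 4, 1 and 0 collagens against 90, 149, 138 and 17 genes, and 0 against 71 in vehicle. The block with a trend had infinite prior degrees of freedom for 197 of 238 genes, so its p-values are smaller than 12 libraries allow.

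The smallest exact p that the ratio tests allow is 0.005.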
